A study of Mus musculus with 6 samples.

Results

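Ifng and Xcl1 are a pair of secreted signals of T cells, natural killer (NK) cells and innate lymphoid cells. Their transcripts were followed in CD45+ cells sorted from mouse liver carrying 4T07 metastases. The members were every feature whose symbol was Ifng or Xcl1. Each of the 3 deposited matrices held both, so 2 of the 5299 genes of the series are described here, in 6 libraries and 23008 cells. Balb/c mice had received 4T07 cells, a mouse mammary carcinoma line, by intracardiac injection. The 4T07 cells carried either a scramble shRNA in pLKO (Ctrl) or an shRNA against Tim3 in pLKO-Puro (Tim3-KD). Because a CD45 sort leaves out the tumour cells that carry the shRNA, the Tim3 transcripts of the sorted cells do not check the labels. Liver pieces were taken as adjacent tissue (AT) and micrometastasis at day 3 and as macrometastasis at day 12, from Ctrl and from Tim3-KD mice. Every group had a single library, which pooled 2 mice. No test within a site was therefore made, and all intervals given here cover counting error only, not the spread between mice.

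Interferon gamma, the product of Ifng, is a cytokine that acts through the receptor pair IFNGR1 and IFNGR2 and the kinases JAK1 and JAK2. It raises antigen presentation, guanylate-binding proteins and the chemokines CXCL9, CXCL10 and CXCL11 in the cells that it reaches. XCL1 is a chemokine whose receptor, XCR1, is carried by type 1 conventional dendritic cells, so it is known as a signal from lymphocytes to these cells. In the liver both are known products of NK cells, of tissue-resident type 1 innate lymphoid cells (ILC1) and of activated T cells.

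In the mouse genome GRCm38, Ifng (ENSMUSG00000055170) lies on the forward strand of chromosome 10, from 118441046 to 118445892. It has 4 exons and codes for 155 amino acids. Xcl1 (ENSMUSG00000026573) lies on the reverse strand of chromosome 1, from 164931644 to 164935527. It has 3 exons and codes for 114 amino acids. The 250 bases before each start site, taken from the RefSeq table of GRCm38.p6, are shown because the transcripts of both genes came from the same few classes of cells. The first is chr10:118440796-118441045 on the forward strand and the second is chr1:164935523-164935772 on the reverse strand, and capitals mark the motifs found.
Ifng: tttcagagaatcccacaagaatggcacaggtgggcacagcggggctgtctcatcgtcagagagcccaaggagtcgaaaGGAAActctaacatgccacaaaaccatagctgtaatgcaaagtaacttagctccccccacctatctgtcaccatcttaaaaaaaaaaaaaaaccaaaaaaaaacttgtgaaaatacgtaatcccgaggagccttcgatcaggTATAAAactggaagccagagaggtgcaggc
Xcl1: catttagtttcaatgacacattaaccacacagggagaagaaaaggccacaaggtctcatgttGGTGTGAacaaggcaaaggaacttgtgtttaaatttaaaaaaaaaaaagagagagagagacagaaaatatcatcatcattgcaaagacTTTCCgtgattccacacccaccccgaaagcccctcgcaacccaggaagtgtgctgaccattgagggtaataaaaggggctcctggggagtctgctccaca
4 motifs were searched on both strands. The TATA box letters TATAAA stood 30 bases before the start in Ifng and were not found in Xcl1, and 12.4% of 32817 promoters of this length hold them. The T-box letters GGTGTGA were found in Xcl1 and not in Ifng, and 3.33% of promoters hold them. The NFAT core GGAAA was found in both, as in 55.6% of promoters, and in Xcl1 it is read on the other strand as TTTCC. The AP-1 letters TGANTCA were found in neither and occur in 6.75% of promoters. A match of letters is a description and not a binding site.

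The values deposited were scaled scores, which could be turned back into whole counts of unique molecular identifiers (UMIs, each 1 captured transcript). In each matrix 99.9995% to 99.9998% of values came out within 0.05 of a whole number. Levels are given as UMIs per 1000000 total UMIs (CPM) summed over the cells of a class. Cells were clustered without Ifng and Xcl1, and 2720 cells fell in clusters of T and NK cells: 210 in AT Ctrl, 137 in AT Tim3-KD, 609 in micrometastasis Ctrl, 397 in micrometastasis Tim3-KD, 660 in macrometastasis Ctrl and 707 in macrometastasis Tim3-KD. Total cells per library ran from 542 in AT Tim3-KD to 5502 in macrometastasis Tim3-KD. The AT Tim3-KD library stood apart in its make-up, with 25.3% of its cells in these clusters against 7.7% to 13.4% in the other 5. It also had the deepest T and NK cells, with a median of 12462 UMIs against 4133 to 7257.5. From 0 to 11 cell barcodes were shared between any pair of libraries.

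The T and NK cells were split further. NK-like cells (451) were led by Irf8, Gzma, Ncr1, Eomes and Prf1. ILC1-like cells (135) were led by Cd7, Cd160, Ccl4, Itga1 and Trdc, a gamma-delta T cell receptor gene, and 51.9% of them also had a UMI of the T cell gene Cd3e. Trdc was found in 31.1% of them (40.4% of NK-like cells), the T cell receptor gene Trac in 36.3%, Cd8a in 23.7% and the NK and ILC gene Ncr1 in 64.4%. The class thus held innate and T cell genes together. A cluster of 491 Cxcr6 T cells was led by Art2a, Socs2, Hopx and Cxcr6. Its fixed markers fitted ILC1, but 85.1% of its cells had a Cd3e UMI and 73.3% a UMI of Trac, the T cell receptor alpha chain, so it is called by its genes. CD8 T-like cells (361) had Cd8b1 in 87.3% and Havcr2, the gene of Tim3 itself, among their leading genes. The other classes were regulatory or activated CD4 T-like cells (268), naive-like T cells (428 and 237), cycling cells (149), a mixed cluster with both T and B genes (137), in which 97.8% of cells had a UMI of the B cell gene Cd79a, and a small cluster led by Tmem176a, Tmem176b and Blk (63). The mixed cluster made up more of the T and NK cells in macrometastasis Tim3-KD (68 cells) than in the other libraries (2 to 27), and 10 of 10 B cell markers were detected in the T and NK cells of every library, at a summed level of 123 to 589 CPM, which was highest in macrometastasis Tim3-KD.

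Nearly all transcripts of both genes lay in the T and NK cells. For Ifng they held 97.5% of the library's UMIs in AT Ctrl, 97.6% in AT Tim3-KD, 98.3% in micrometastasis Ctrl, 93.7% in micrometastasis Tim3-KD, 96.4% in macrometastasis Ctrl and 97.9% in macrometastasis Tim3-KD. For Xcl1 the values in the same order were 97.8%, 98.2%, 98.5%, 94.7%, 98.4% and 98.8%. The micrometastasis Tim3-KD library was thus the lowest for both genes, and its monocyte-like cells held 1.54% of the Ifng and 2.21% of the Xcl1. Dendritic cell-like cells (528) had 0 to 11 Ifng and 0 to 1 Xcl1 UMIs per library.

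To compare how many cells held each transcript, every cell was thinned to 1500 UMIs. At that depth B, mature neutrophil-like and neutrophil precursor-like cells, which should lack both transcripts, had Ifng in 0% to 0.11% of cells and Xcl1 in 0.04% to 0.93%, with library medians of 5075 to 9274 UMIs per cell before thinning. T and NK cells were far above this. In AT Ctrl 29.0% of them (23.0 to 35.7) had an Ifng UMI and in AT Tim3-KD 14.6% (9.2 to 21.6). The micrometastasis values were 24.0% in Ctrl and 29.0% in Tim3-KD, and the macrometastasis values 20.3% and 20.5%. For Xcl1 the shares in Ctrl before Tim3-KD were 36.7% and 21.2% for AT, 26.6% and 27.7% for micrometastasis and 20.9% and 20.8% for macrometastasis. Without thinning, Ifng was found in 36.6% to 50.6% and Xcl1 in 29.7% to 47.1% of T and NK cells.

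Xcl1 was the more concentrated of the pair. ILC1-like cells were its highest class in every library, at 3944 CPM in AT Ctrl, 5201 in AT Tim3-KD, 3835 in micrometastasis Ctrl, 2395 in micrometastasis Tim3-KD, 3466 in macrometastasis Ctrl and 2659 in macrometastasis Tim3-KD. NK-like cells followed at 466 to 1928 CPM and Cxcr6 T cells at 555 to 1394 CPM. These ranges overlapped. NK-like cells were the higher in AT Ctrl (1928 against 1050 CPM) and Cxcr6 T cells in micrometastasis Ctrl (1394 against 901 CPM), while in the other 4 libraries the classes lay close together, as in macrometastasis Tim3-KD (736 and 721 CPM, the former being 482 CPM without its highest cell). In AT Tim3-KD, NK-like cells had 466 CPM and Cxcr6 T cells 555 CPM, and without the highest cell of each class 254 and 472 CPM. CD8 T-like cells had 185 to 644 CPM in the 4 lesion libraries, and the top of that range, macrometastasis Tim3-KD, was 362 CPM without its highest cell. AT held too few CD8 T-like cells to judge (7 and 1), with no Xcl1 UMI. Regulatory or activated CD4 T-like cells had at most 33.4 CPM and naive-like T cells at most 25.5 CPM. Between 76.0% and 100% of ILC1-like cells had an Xcl1 UMI at 1500 UMIs per cell.

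Ifng was spread more evenly. ILC1-like cells had 408, 334, 1012, 854, 764 and 976 CPM in the library order just used, and Cxcr6 T cells 712, 403, 606, 573, 445 and 729 CPM. ILC1-like cells were the higher of these in all 4 lesion libraries and Cxcr6 T cells in both AT libraries. CD8 T-like cells had 460 and 491 CPM in micrometastasis and 627 and 481 CPM in macrometastasis, Ctrl before Tim3-KD. NK-like cells had 453, 40.8, 301, 185, 390 and 343 CPM. They were below the CD8 T-like cells in both micrometastasis libraries, also when each class was taken without its highest cell. In macrometastasis the order rested on single cells: without the highest CD8 T-like cell that class had 288 and 340 CPM, Ctrl before Tim3-KD, and NK-like cells without theirs had 367 and 279 CPM. Regulatory or activated CD4 T-like cells had 19.3 to 168 CPM and naive-like T cells 4.0 to 32.9 CPM. The order of classes therefore differed between the genes. In both micrometastasis libraries NK-like cells had more Xcl1 and less Ifng than CD8 T-like cells.

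**Figure D1:**
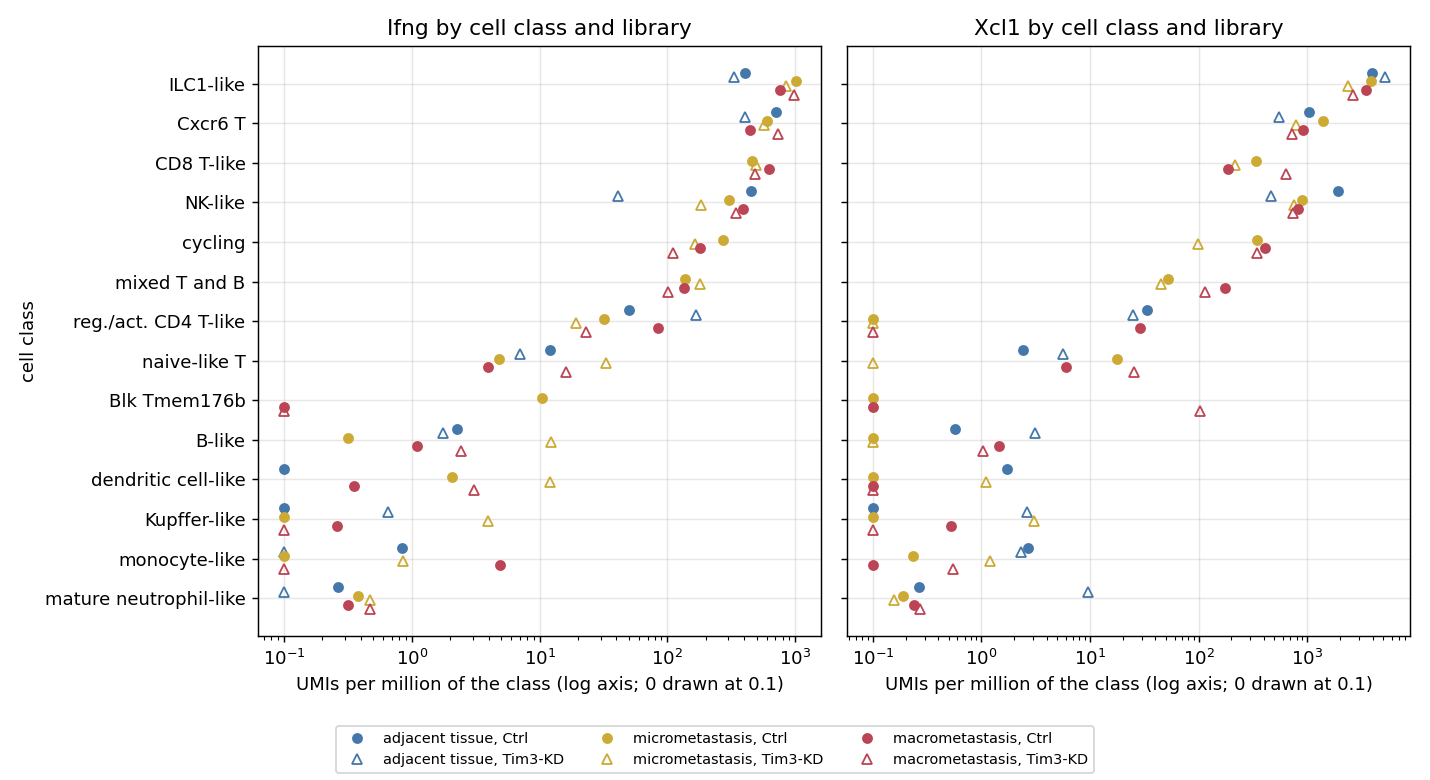
Level of Ifng and of Xcl1 (UMIs per 1000000 total UMIs, log axis) in each class of T and NK cells and in other cells, with 1 point per library and no intervals. Classes with under 10 cells in a library are not drawn and a level of 0 is drawn at 0.1. Xcl1 in ILC1-like cells lies above every other class, at 2395 to 5201 CPM, while the Ifng ranges of ILC1-like, Cxcr6 T and CD8 T-like cells overlap.

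Both genes were often found in the same cells, and the tie between them was weaker within classes than across them. Over all libraries and at 1500 UMIs per cell, 278 of the 2720 T and NK cells (10.2%) had both, 343 (12.6%) Ifng only, 385 (14.2%) Xcl1 only and 1714 (63.0%) neither. Among cells with Ifng, 44.8% (40.8 to 48.8) had Xcl1, against 18.3% (16.7 to 20.1) of cells without Ifng. Within classes the gap was smaller. In ILC1-like cells the values were 86.7% and 85.3%, in CD8 T-like cells 15.5% and 15.1%, in Cxcr6 T cells 58.6% and 53.2%, and in NK-like cells 44.5% and 34.1%. The intervals of each of these 4 pairs overlapped. The values of NK-like and Cxcr6 T cells each joined libraries that went opposite ways. In NK-like cells the share with Xcl1 was lower among cells with Ifng in AT Ctrl (40.0% against 47.1%) and macrometastasis Tim3-KD (14.3% against 29.5%) and higher in the other 4 libraries. In Cxcr6 T cells, those with Ifng had Xcl1 less often than those without it in AT Ctrl (58.3% against 76.9%) and micrometastasis Ctrl (51.4% against 78.7%), and about as often in macrometastasis Ctrl (48.0% against 48.8%). In the Tim3-KD libraries of the same sites they had it more often, at 54.5% against 29.4%, 70.5% against 46.0% and 59.4% against 42.5%. The intervals of the shares overlapped within each of the 6 libraries, and the difference between the groups was not tested. ILC1-like cells had both in 38.5% and Xcl1 only in 47.4%, with Ifng only in 5.9%. CD8 T-like cells had neither in 54.6%, Ifng only in 30.2%, Xcl1 only in 9.7% and both in 5.5%.

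**Figure D2:**
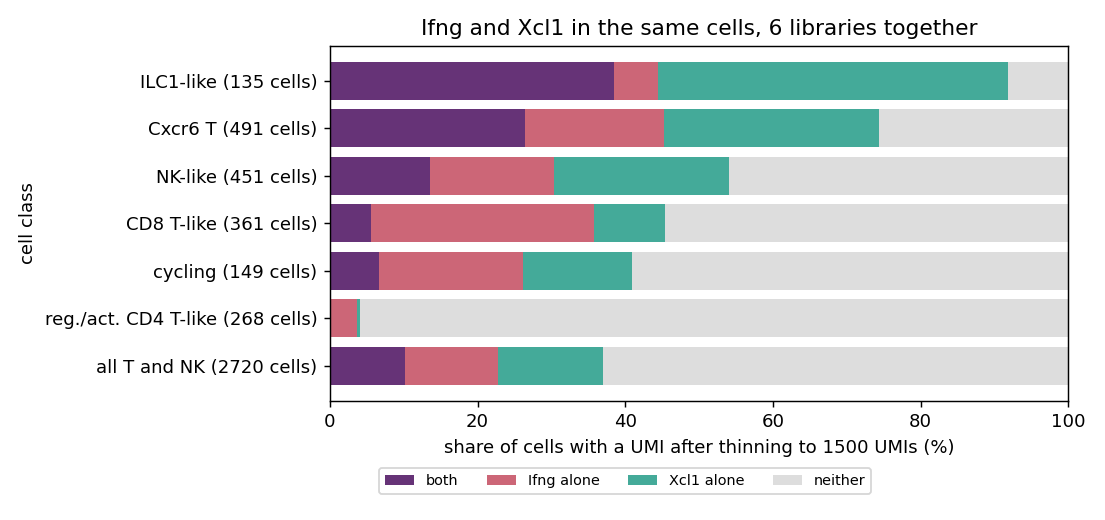
Share of cells (percent, after thinning to 1500 UMIs per cell, all 6 libraries together) with both genes, Ifng only, Xcl1 only or neither. ILC1-like, Cxcr6 T, NK-like, CD8 T-like, cycling and regulatory or activated CD4 T-like cells and all T and NK cells are drawn. ILC1-like cells are mostly Xcl1-positive (38.5% both and 47.4% Xcl1 only), whereas CD8 T-like cells mostly have neither (54.6%) or Ifng only (30.2%).

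A few cells carried much of some libraries. The highest Ifng cell was a CD8 T-like cell of macrometastasis Ctrl with 205 UMIs, 17.2% of the Ifng of its library, and this is a lower bound because its score was at the deposited cap of 10. In macrometastasis Tim3-KD, 1 CD8 T-like cell was the highest for both genes, with 121 Ifng UMIs and at least 236 Xcl1 UMIs among its 18545 UMIs. In AT Tim3-KD, 1 ILC1-like cell held 229 Xcl1 UMIs, 23.8% of the library. Without that cell, Xcl1 in the ILC1-like cells of AT Tim3-KD was 3707 CPM in place of 5201, still the highest class there. In the other libraries the highest cell held 2.93% to 8.33% of the Ifng and 3.28% to 8.38% of the Xcl1.

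Setting Tim3-KD beside Ctrl addresses how immune cells near the metastases differ when the tumour cells have less Tim3. In AT, both genes were lower in the T and NK cells of Tim3-KD. Ifng was at 138 CPM against 308 CPM, a ratio of 0.447 (0.383 to 0.522), and Xcl1 at 531 against 826 CPM, a ratio of 0.642 (0.590 to 0.698). The thinned shares went the same way, by -14.4 percentage points for Ifng (-22.6 to -5.5) and -15.5 for Xcl1 (-24.5 to -5.7). Of all 3403 genes with at least 20 UMIs in these cells, 12.7% were at least 2-fold lower in Tim3-KD and 5.88% at least 2-fold higher, with a median log2 ratio of -0.30. Relative to the trimmed mean of all genes the ratios were 0.549 for Ifng and 0.788 for Xcl1. Without its 1 highest cell in each library, Xcl1 had a ratio of 0.530. Both directions turned in AT when cells were called one by one from at least 2 UMIs of T or NK genes, to 1.73 for Ifng and 2.51 for Xcl1. That choice also took many neutrophil-like cells, and asking for 2 different genes gave 0.548 and 0.796.

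In micrometastasis the pair parted. Ifng was at 332 CPM in Tim3-KD against 292 CPM in Ctrl, a ratio of 1.14 (1.03 to 1.26), and Xcl1 at 331 against 619 CPM, a ratio of 0.535 (0.491 to 0.583). The thinned share of Xcl1 cells did not follow its level and differed by 1.1 points (-4.4 to 6.8). Unthinned cells with Xcl1 had a median of 4 UMIs in Tim3-KD and 5 in Ctrl. The thinned share of Ifng cells differed by 5.0 points (-0.5 to 10.6). For all 2154 genes tested, 3.81% were at least 2-fold higher and 6.41% at least 2-fold lower. The direction of Ifng depended on the mix of classes: with the classes weighted as in Ctrl, an alternative added after the data were seen, its ratio was 0.869, while that of Xcl1 was 0.642. With cells called one by one the ratio of Ifng was 0.548, and 1.02 when 2 different genes were asked for.

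In macrometastasis the levels were close. Ifng was at 275 CPM in Tim3-KD and 260 CPM in Ctrl, a ratio of 1.06 (0.979 to 1.15), and Xcl1 at 408 and 440 CPM, a ratio of 0.927 (0.870 to 0.987). The thinned shares differed by 0.2 points for Ifng (-4.1 to 4.5) and -0.1 for Xcl1 (-4.4 to 4.2). For all 2086 genes tested, 3.55% were at least 2-fold higher and 3.45% at least 2-fold lower. Leaving out the capped cells gave 1.28 for Ifng and 0.742 for Xcl1, so the size of both rested on a few cells. With the 3 sites taken as pairs of libraries, an addition made after the data were seen, the mean log2 ratio was -0.30 for Ifng (SD 0.75, n = 3, exact two-sided sign-flip permutation p = 1.0) and -0.55 for Xcl1 (SD 0.40, n = 3, exact p = 0.25), which was lower in 3 of 3 pairs, and 0.25 is the smallest p that 3 pairs allow. The 3 sites differ in tissue or day and are not replicates of the same contrast. AT and micrometastasis were taken on the same day, and the labels do not say whether from separate mice. Without the mixed T and B cluster the 3 ratios from AT to macrometastasis were 0.436, 1.15 and 1.12 for Ifng and 0.638, 0.549 and 0.983 for Xcl1.

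**Figure D3:**
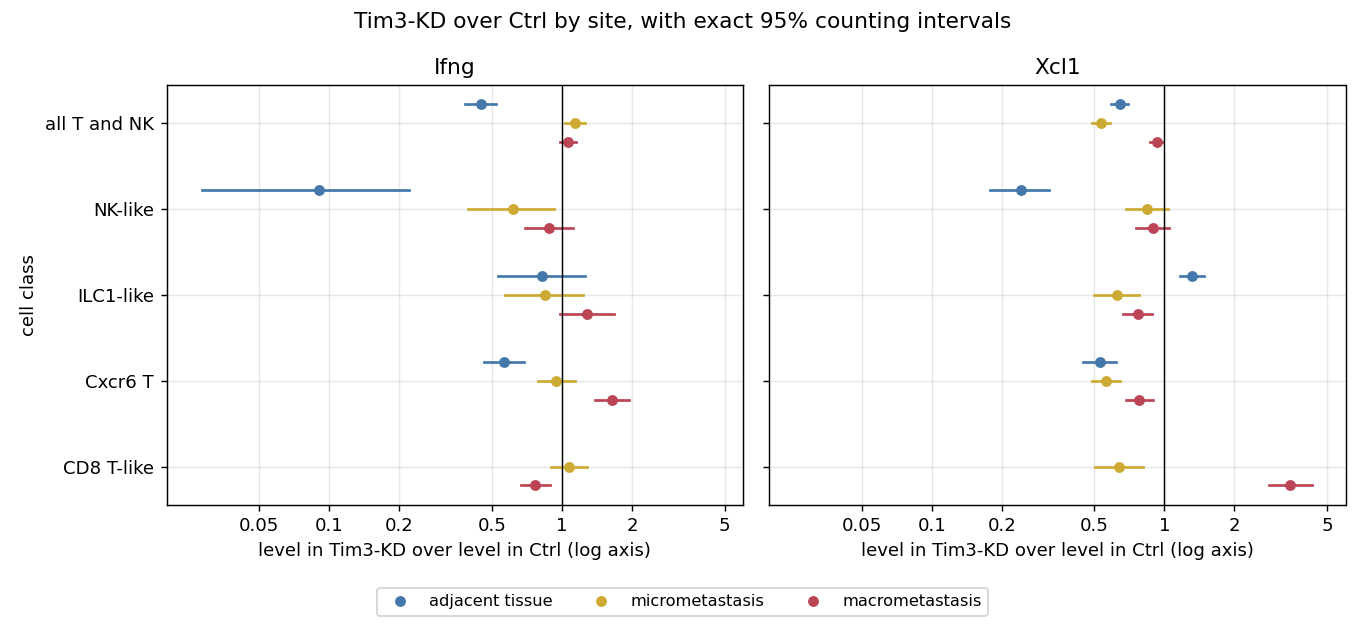
Ratio of Tim3-KD to Ctrl (log axis, CPM over CPM) for Ifng and Xcl1 at each site, with exact 95% intervals for counting error. T and NK cells together and NK-like, ILC1-like, Cxcr6 T and CD8 T-like cells are drawn, where both libraries held at least 10 cells. In T and NK cells together Ifng is at 0.447, 1.14 and 1.06 and Xcl1 at 0.642, 0.535 and 0.927 in AT, micrometastasis and macrometastasis.

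The make-up of the T and NK cells differed beside these levels. In micrometastasis, NK-like cells were 27.1% of them for Ctrl (23.6 to 30.8) and 6.8% for Tim3-KD (4.5 to 9.7). In macrometastasis the shares were 24.7% and 8.2%. In AT they were 12.9% (8.6 to 18.2) and 8.0% (4.1 to 13.9). Cxcr6 T cells were 13.8% in micrometastasis Ctrl and 26.9% in Tim3-KD, and 10.3% and 20.1% in macrometastasis, but 29.5% and 20.4% in AT. CD8 T-like cells were 12.8% and 30.0% for micrometastasis and 10.0% and 12.7% for macrometastasis. Naive-like T cells, which held little of either gene, were 23.3% in AT Ctrl (17.8 to 29.6) and 38.7% in AT Tim3-KD (30.5 to 47.4), 21.5% and 9.6% in micrometastasis and 28.3% and 29.3% in macrometastasis. Cells of a recomputed doublet score over 0.15 were 9.5% and 10.9% of the T and NK cells in AT, 7.2% and 22.2% in micrometastasis and 12.9% and 20.9% in macrometastasis, and without them the ratios from AT to macrometastasis were 0.425, 1.27 and 0.960 for Ifng and 0.683, 0.498 and 0.784 for Xcl1. The sources of the transcripts moved with them. NK-like cells held 20.5% of the Ifng of T and NK cells in micrometastasis Ctrl and 3.7% in Tim3-KD, while CD8 T-like cells held 23.1% and 43.3%. For Xcl1, NK-like cells held 29.0% and 15.2% and Cxcr6 T cells 28.8% and 44.2%. In macrometastasis Cxcr6 T cells held 16.7% of the Ifng in Ctrl and 40.9% in Tim3-KD.

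Within NK-like cells, both genes were below Ctrl in level at every site. In AT the ratios were 0.0901 for Ifng (0.028 to 0.219, from 5 and 78 UMIs) and 0.241 for Xcl1 (0.179 to 0.321), in only 11 and 27 cells. In micrometastasis they were 0.614 for Ifng (0.394 to 0.923) and 0.843 for Xcl1 (0.682 to 1.04), and in macrometastasis 0.881 (0.694 to 1.11) and 0.889 (0.757 to 1.04). The last 3 intervals included 1. When the highest NK-like cell of each library was left out, these 3 were 0.721 (0.567 to 0.907) for Xcl1 in micrometastasis, and 0.761 (0.584 to 0.982) for Ifng and 0.632 (0.521 to 0.763) for Xcl1 in macrometastasis. Under other settings some of these turned above 1: Ifng in macrometastasis was 1.13 without cells under 3000 UMIs, and Xcl1 in micrometastasis was 1.07 as a mean over cells and 1.14 relative to the trimmed mean of all genes. The thinned share of NK-like cells with Xcl1 did not follow the level in micrometastasis, at 51.9% in Tim3-KD and 37.6% in Ctrl (a difference of 14.3 points, -5.1 to 33.0), nor in AT, at 45.5% and 44.4% (1.0 point, -29.3 to 32.4), and in macrometastasis it was 25.9% and 36.8% (-10.9 points, -23.1 to 3.4).

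ILC1-like cells, the richest in Xcl1, had ratios of 1.32 (1.17 to 1.48) in AT, 0.625 (0.499 to 0.775) in micrometastasis and 0.767 (0.666 to 0.883) in macrometastasis for Xcl1. The AT value rested on 1 cell and was 0.940 (0.825 to 1.07) without the highest cell of each library and 1.02 (0.891 to 1.17) without the highest ILC1-like cell of each. Ifng in these cells had ratios of 0.819, 0.843 and 1.28. All 3 intervals included 1, but without the highest ILC1-like cell of each library the macrometastasis value was 1.42 (1.06 to 1.91). The class held 13 to 30 cells per library.

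In Cxcr6 T cells, Ifng had ratios of 0.566 (0.464 to 0.687) in AT, 0.945 (0.786 to 1.14) in micrometastasis and 1.64 (1.39 to 1.94) in macrometastasis. Xcl1 was below Ctrl at all 3 sites, at 0.529 (0.448 to 0.622), 0.561 (0.487 to 0.645) and 0.780 (0.684 to 0.889). In macrometastasis these cells were thus higher in Ifng and lower in Xcl1 in Tim3-KD by level. The thinned shares did not separate the libraries: Ifng was found in 48.6% against 36.8% of them, a difference of 11.8 points (-2.5 to 25.1), and Xcl1 in 50.7% against 48.5%, a difference of 2.2 points (-12.0 to 16.2). Of 11 counted lymphocyte cytokine and cytotoxic genes 1 was at least 2-fold higher there, Gzmb, the cytotoxic protease granzyme B (641 against 285 CPM), and 2 were lower, Gzma (28.0 against 130 CPM) and Ccl3 (12.0 against 32.4 CPM), beside 7.06% and 6.04% of all 977 genes tested. Immediate early genes, which respond to receptor signals and to cell handling, went both ways, with Egr1 (382 against 90.4 CPM) and Fos (918 against 399 CPM) higher and Nr4a2 (16.0 against 76.5 CPM) and Nr4a3 (53.3 against 111 CPM) lower, of 11. The part of handling in the Ifng value was not tested.

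CD8 T-like cells had Ifng at 1.07 (0.893 to 1.28) in micrometastasis and 0.768 (0.664 to 0.888) in macrometastasis. The macrometastasis value turned to 1.18 without the highest cell of each library and to 1.67 without the capped cells. For Ifng, 1 cell of Ctrl and 0 of Tim3-KD were capped there, so the latter value left out the highest cell of Ctrl alone. Xcl1 in these cells was at 0.637 (0.502 to 0.807) in micrometastasis and 3.47 (2.82 to 4.31) in macrometastasis. The micrometastasis value turned to 1.24 as a mean over cells, and the thinned share there was 15.1% in Tim3-KD and 11.5% in Ctrl. The macrometastasis value was 1.95 (1.56 to 2.46) without the highest cell of each library, which was a CD8 T-like cell in Tim3-KD only. It was 2.34 (1.84 to 3.01) without the highest CD8 T-like cell of each library. Without cells of a recomputed doublet score over 0.15 it was 1.09 (0.846 to 1.41). The thinned share of these cells with Xcl1 was 15.2% in Ctrl and 20.0% in Tim3-KD in macrometastasis.

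Among cells with little of either gene, regulatory or activated CD4 T-like cells had Ifng ratios of 3.35 (1.69 to 7.12, from 34 and 12 UMIs) in AT and 0.273 (0.124 to 0.556, from 11 and 32 UMIs) in macrometastasis. In AT Tim3-KD 1 cell held 18 of the 34 UMIs, and without the highest cell of the class in each library the ratio was 2.64 (1.03 to 7.59). The thinned share in AT went the other way, at 5.6% of 18 cells in Tim3-KD and 7.1% of 28 in Ctrl.

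Cycling cells, which divide and hold many UMIs each, had Ifng at 111 to 273 CPM and Xcl1 at 348 to 413 CPM in the lesion libraries, except for a lower Xcl1 in micrometastasis Tim3-KD. In macrometastasis Ctrl 46 such cells held 14.4% of the Ifng and 19.4% of the Xcl1 of the T and NK cells, and the Xcl1 level there was 279 CPM without the highest cell. In micrometastasis Ctrl it was 348 CPM with and 203 CPM without that library's highest cycling cell. Tim3-KD over Ctrl, they had Ifng ratios of 0.603 (0.448 to 0.808) and 0.614 (0.461 to 0.811) in micrometastasis and macrometastasis, and Xcl1 ratios of 0.284 (0.202 to 0.395) and 0.844 (0.714 to 0.996). Without the highest cycling cell of each library these Xcl1 ratios were 0.376 and 0.939 (0.769 to 1.15).

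Per 1000 sorted cells, the order was another. T and NK cells supplied 285 Ifng UMIs per 1000 sorted cells in AT Ctrl and 454 in AT Tim3-KD. The values were 177 and 142 for micrometastasis and 233 and 243 for macrometastasis. For Xcl1 the same values were 764 and 1745, 377 and 142, and 395 and 360. Without the highest cell the AT Tim3-KD value of Xcl1 was 1325. In AT, Tim3-KD was thus lower per UMI of T and NK cells but higher per sorted cell, in a library with the larger share of T and NK cells and the deeper cells. In micrometastasis, both genes were lower per sorted cell in Tim3-KD. A share of sorted cells depends on all other cells in the sort, and more lymphocytes cannot be told apart from fewer other cells.

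**Figure D4:**
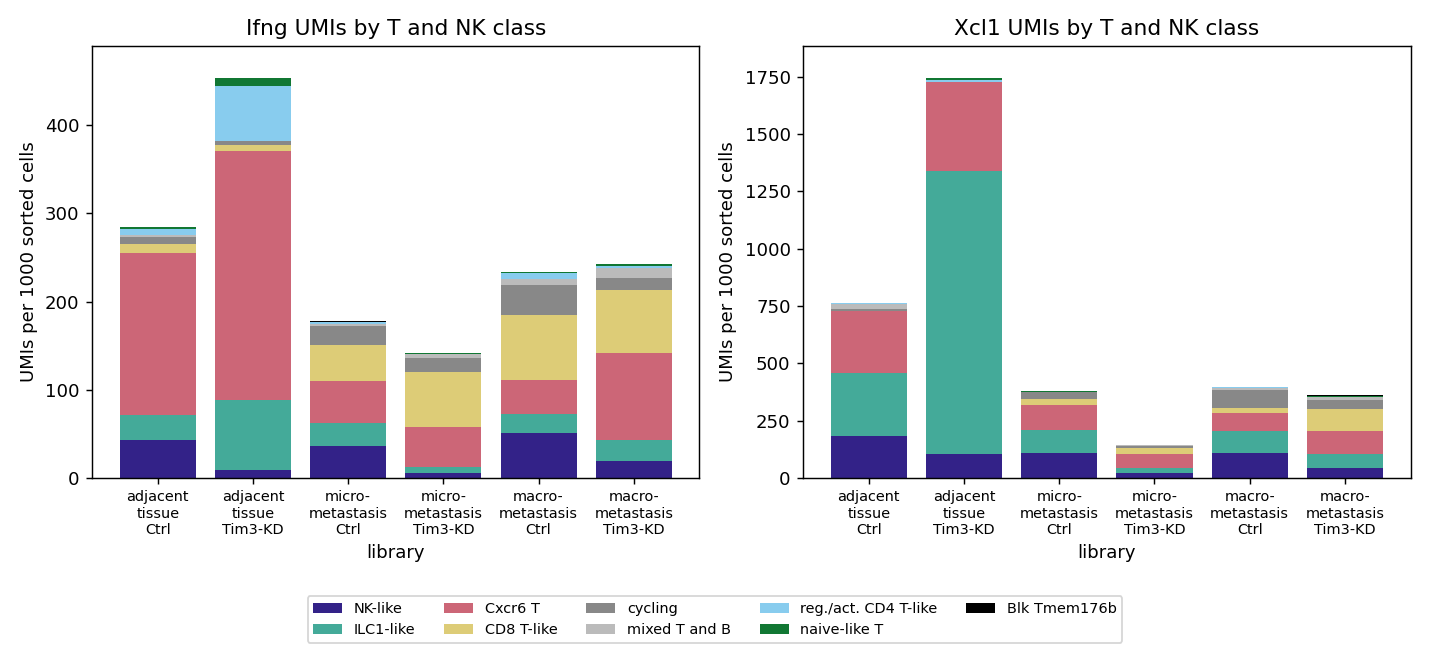
UMIs of Ifng and of Xcl1 held by T and NK cells per 1000 sorted cells in each of the 6 libraries, split by class; bars start at 0. Xcl1 reaches 1745 in AT Tim3-KD and is lowest, at 142, in micrometastasis Tim3-KD, where NK-like and ILC1-like cells hold the smaller part.

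Between sites, Ctrl T and NK cells had Ifng at 308 CPM in AT, 292 in micrometastasis and 260 in macrometastasis. The ratio of micrometastasis to AT was 0.945 (0.847 to 1.06), and that of macrometastasis to micrometastasis 0.890 (0.815 to 0.972). The latter was 1.01 with the class mix of micrometastasis. Xcl1 was lower at each step, at 826, 619 and 440 CPM, with ratios of 0.749 (0.699 to 0.803) and 0.710 (0.667 to 0.757). With the class mix held, its ratios were 0.982 and 0.839, and ILC1-like cells were 11.4% of T and NK cells in AT Ctrl and 4.8% in micrometastasis Ctrl. From AT to micrometastasis in Ctrl, Xcl1 went from 1050 to 1394 CPM in Cxcr6 T cells. It went from 1928 to 901 CPM in NK-like cells and from 3944 to 3835 CPM in ILC1-like cells. With cells called individually from at least 2 UMIs of T or NK genes, this step of Xcl1 turned upward. In Tim3-KD, Ifng was 2.41-fold (2.08 to 2.79) higher in micrometastasis than in AT, and Xcl1 had a ratio of 0.624 (0.566 to 0.689). The class mix differed too. Naive-like T cells were 38.7% of T and NK cells in AT and 9.6% in micrometastasis, and CD8 T-like cells 0.7% and 30.0%. The Ifng ratio was 1.42 (1.16 to 1.76) in Cxcr6 T, 2.55 (1.59 to 4.07) in ILC1-like and 4.53 (1.72 to 15.1, from 27 and 5 UMIs) in NK-like cells. The part of the mix in the 2.41-fold value was not tested. From micrometastasis to macrometastasis in Tim3-KD, Ifng had a ratio of 0.828 (0.756 to 0.908) and Xcl1, other than in Ctrl, one of 1.23 (1.13 to 1.34). Site and matrix go together, and the stage of the lesion and the day cannot be told apart.

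The other genes of these pathways were taken by role. Receptors and signalling of interferon gamma were partly measured: Ifngr1 was not analysed here, and Ifngr2 and Jak2 were in the AT and micrometastasis matrices only. In the T and NK cells of macrometastasis, 0 of 3 counted genes were at least 2-fold different (3.55% of all genes were higher and 3.45% lower). In those of micrometastasis, genes at least 2-fold lower in Tim3-KD were Ifngr2, at 8.19 against 29.0 CPM, and the feedback inhibitor Socs3, at 31.4 against 76.9 CPM, beside 6.41% of all genes. In AT the same genes were at 26.9 against 26.4 CPM for Ifngr2 and 32.5 against 34.2 CPM for Socs3.

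Genes that induce Ifng include the receptor chains of interleukins 12, 18 and 15 and the transcription factors Stat4, Eomes, Runx3 and Irf8. In T and NK cells, 2 of 8 counted genes were at least 2-fold lower in Tim3-KD in AT, 3 of 8 in micrometastasis and 0 of 8 in macrometastasis (12.7%, 6.41% and 3.45% of all genes), and 0 were higher at each site. Their median log2 ratios were -0.63, -0.36 and -0.11, beside -0.30, -0.14 and 0.03 for all genes. In AT these were Irf8 (66.7 against 172 CPM) and Stat4, which carries the interleukin 12 signal (31.4 against 80.4 CPM). In micrometastasis they were Irf8 (123 against 401 CPM), Il18rap, a chain of the interleukin 18 receptor (34.1 against 80.1 CPM), and Eomes, a T-box factor of NK cells (30.9 against 79.2 CPM). Irf8 and Eomes mark NK-like cells, whose share was also smaller. Within the NK-like cells of micrometastasis, 4 of 7 counted genes were lower, beside 26.0% of all 955 genes tested there. They were Irf8 (493 against 1796 CPM), Il18rap (95.9 against 259 CPM), Stat4 (75.3 against 163 CPM) and Il18r1 (13.7 against 133 CPM), in 27 and 165 cells. The median log2 ratio was -1.06 for the list and -0.41 for all genes in these cells. In the Tim3-KD cells 27 UMIs of Ifng made 185 CPM, so the lower of these levels rest on few UMIs.

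Among cytokines and cytotoxic genes of lymphocytes, 3 of 11 were lower and 1 higher in AT, 2 of 12 lower in micrometastasis and 2 of 12 lower in macrometastasis. Beside these, 12.7%, 6.41% and 3.45% of all genes were lower and 5.88% higher in AT. In AT the chemokine Ccl5 was at 2527 against 5607 CPM, Gzmb at 304 against 664 CPM and the growth factor Csf1 at 5.61 against 28.2 CPM. Ltb, which codes for lymphotoxin beta, was higher in AT, at 533 against 173 CPM, and lower in micrometastasis, at 71.0 against 462 CPM. Ccl3, a chemokine of activated lymphocytes and myeloid cells, was lower in both lesions, at 198 against 585 CPM and 261 against 541 CPM. Gzma, a protease of NK cells, was lower in macrometastasis, at 1247 against 2970 CPM. Fasl, the Fas ligand, was the gene most like Ifng in its pattern and was below 2-fold at each site.

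The genes known to respond to interferon gamma were counted in T and NK cells and in the myeloid cells that could receive it. In T and NK cells, 4 of 15 were at least 2-fold lower in AT, with a median log2 ratio of -0.83, beside 12.7% of all genes and a median of -0.30. They were Gbp7 (49.9 against 122 CPM), Gbp6 (30.9 against 62.4 CPM) and Gbp3 (11.2 against 31.8 CPM), which code for guanylate-binding proteins, and the class II gene H2.Ab1 (46.6 against 116 CPM). In micrometastasis 3 of 15 were higher (3.81% of all genes), all class II genes (H2.Aa at 198 against 77.9 CPM, H2.Eb1 at 104 against 42.2 CPM and H2.Ab1 at 126 against 59.9 CPM), and Iigp1 was lower. In macrometastasis H2.Aa was higher (356 against 157 CPM) and Cxcl9 lower. The class II genes are also expressed by B cells, and the summed B markers in these cells were 123 against 295 CPM in AT, 286 against 168 CPM in micrometastasis and 589 against 287 CPM in macrometastasis. The part of B cell RNA in the class II values was not tested.

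Monocyte-like cells gave the strongest contrast. In macrometastasis 13 of 14 counted targets were at least 2-fold lower in Tim3-KD and 0 higher, with a median log2 ratio of -2.08, beside 25.2% of all 2081 genes lower, 7.5% higher and a median of -0.42. Class II genes were lower (H2.Aa at 302 against 1247 CPM and H2.Ab1 at 220 against 954 CPM), as were Gbp2 (20.5 against 67.4 CPM), Irgm1 (22.2 against 50.7 CPM) and the chemokine Cxcl10 (8.94 against 62.9 CPM). The clusters of monocytes differed: cluster 4 held 4.3% of them in Ctrl and 34.5% in Tim3-KD, and cluster 12 held 23.4% and 1.4%. Within cluster 7, which held most of them in both libraries, 9 of 14 were lower and 0 higher, beside 9.33% and 4.96% of 1672 genes, and the median was -1.27. There Cxcl9 was at 0.74 against 49.8 CPM and Cxcl10 at 5.17 against 82.4 CPM. The other clusters were small in 1 library. Cluster 4, with 9 Ctrl cells, had 4 of 8 lower and 2 higher, beside 24.8% and 14.2% of genes, with a median of -0.86. Cluster 12, with 5 Tim3-KD cells, had 1 of 4 lower and 0 higher, beside 29.1% and 11.9% of genes, with a median of 0.12. In micrometastasis 6 of 17 targets were lower and 1 higher in monocyte-like cells (12.8% and 4.57% of genes). Cluster 4 held 12.8% of these cells in Ctrl and 43.8% in Tim3-KD, and within cluster 7 the counts were 5 of 17 lower and 1 higher (5.53% and 4.92% of 2295 genes), with a median log2 ratio of -0.12. In AT, with 20 cells in Tim3-KD, 4 of 13 were lower (20.1% of genes). Cluster 4 held 32.7% of the monocyte-like cells in AT Ctrl and 0 of 20 in Tim3-KD, and within cluster 7, in 16 and 169 cells, 8 of 13 were lower and 0 higher, with a median log2 ratio of -1.46 (17.2% of 3245 genes were lower and 13.3% higher, with a median of -0.030).

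Immediate early and stress genes also moved in these cells. In the monocyte-like cells of macrometastasis 8 of 11 such genes were at least 2-fold lower in Tim3-KD, with a median log2 ratio of -1.11 (25.2% of all genes), and in cluster 7 the count was 3 of 11 lower and 1 higher (9.33% and 4.96%). In micrometastasis 4 of 12 were lower and 0 higher in monocyte-like cells (median -0.91, beside 12.8% and 4.57% of genes), and 0 of 12 in cluster 7. In AT 1 of 14 was lower and 10 higher (median 1.38, beside 20.1% and 19.0% of genes). In cluster 7 of AT 1 of 14 was lower and 6 higher (17.2% and 13.3%). Their part in the target values was not tested. In the T and NK cells the same list had 4 of 14 lower and 1 higher in AT, 1 of 12 each way in micrometastasis and 0 of 11 in macrometastasis. Of all genes in these cells 12.7% were lower and 5.88% higher in AT, 6.41% and 3.81% in micrometastasis, and 3.45% and 3.55% in macrometastasis.

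Kupffer-like cells, the resident macrophages of the liver, were made up of clusters 21 and 22 and had 8 of 16 targets lower in AT (5.17% of 3251 genes lower), 1 of 17 in micrometastasis (2.42%) and 5 of 15 in macrometastasis (7.42%), with 0 higher at each site (12.3%, 4.33% and 2.18% of genes). In AT, H2.Aa was at 1390 against 5001 CPM and Serpina3g, a protease inhibitor, at 18.9 against 167 CPM, in 105 and 31 cells. In macrometastasis Cxcl10 was at 20.4 against 58.8 CPM, Cxcl9 at 13.4 against 29.1 CPM and Ciita, the master regulator of class II genes, at 23.5 against 51.2 CPM. The mix of the clusters differed, with cluster 21 holding 9 of 31 cells in AT Ctrl, 54 of 105 in AT Tim3-KD, 61 of 275 in micrometastasis Ctrl, 4 of 255 in micrometastasis Tim3-KD, 65 of 804 in macrometastasis Ctrl and 181 of 935 in macrometastasis Tim3-KD. Within cluster 22 the counts of lower targets were also 8 of 16 in AT (4.32% of genes) and 5 of 15 in macrometastasis (7.36%). Stress and immediate early genes moved in the Kupffer-like cells too, with 3 of 12 lower in AT (median log2 ratio -0.60), 0 of 12 in micrometastasis and 6 of 11 in macrometastasis (median -1.01), and their part in the target values was not tested.

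Dendritic cell-like cells went the other way in micrometastasis. There, 6 of 14 targets were higher in Tim3-KD and 0 lower, with a median log2 ratio of 0.88, beside 9.97% of 1836 genes higher, 4.41% lower and a median of 0.18. Cxcl10 was at 82.9 against 9.26 CPM, Serpina3g at 196 against 32.4 CPM, Cd274, which codes for the checkpoint ligand PD-L1, at 63.0 against 16.0 CPM and Gbp7 at 25.4 against 5.66 CPM. The chemokine genes Ccl3, Ccl4 and Ccl5 and the cytokine gene Tnf were also higher in these cells and Ltb lower, of 5 counted, and higher too were the heat shock genes Hspa1a (548 against 172 CPM) and Hspa1b (149 against 42.7 CPM), whose part was not tested. In AT, with 9 Tim3-KD cells, 0 of 4 targets differed 2-fold (12.0% of 1073 genes were higher and 19.1% lower). In macrometastasis 3 of 14 targets were lower and 1 higher (6.1% and 5.36% of 1624 genes). The lower ones were the CXCR3 ligands Cxcl9 (35.4 against 121 CPM), Cxcl10 (4.61 against 62.4 CPM) and Cxcl11 (2.31 against 16.4 CPM).

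For XCL1, the receiving side was small. Xcr1 was in the macrometastasis matrix only. In dendritic cell-like cells it was at 197 CPM in Tim3-KD and 240 CPM in Ctrl, and Clec9a, another gene of type 1 dendritic cells, at 193 and 244 CPM. The list of type 1 dendritic cell genes had 0 of 5 genes at least 2-fold different in AT, 0 of 6 in macrometastasis, and 1 of 6 higher in micrometastasis, the homing receptor gene Ccr7, at 127 against 62.8 CPM. Of all genes in these cells 12.0% were higher and 19.1% lower in AT, 5.36% and 6.1% in macrometastasis and 9.97% and 4.41% in micrometastasis, so 1 of 6 is near the share over all genes. Dendritic cell-like cells numbered 141 and 93 in micrometastasis, Ctrl before Tim3-KD, and 170 and 88 in macrometastasis.

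The genes whose levels followed the pair most closely were sought over 88 points, each a class in a library, among 1641 genes, on a log2(CPM + 10) scale. For Ifng they were Fasl (Pearson r of 0.969), the cytotoxic cell protease gene Ctsw (0.95), Xcl1 (0.948), the interleukin 2 receptor chain gene Il2rb (0.943) and the NK and ILC receptor gene Cd160 (0.930). For Xcl1 they were Cd160 (0.958), Fasl (0.956), Ifng (0.948), Ctsw (0.930) and the NK receptor gene Klrc2 (0.923). The order depended on the pseudocount: with 1 in place of 10, Xcl1 was at rank 12 for Ifng and Ifng at rank 5 for Xcl1. These are descriptions: the points share libraries, depth and classes, and most are cell classes that hold neither gene.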

How the data were processed

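CD45+ liver cells were profiled with 10x 3' v3.1 chemistry in 6 libraries. The authors trimmed reads with Trim Galore 0.4.3, mapped them with STAR 2.7.7a to GRCm38, counted UMIs over exons and introns, filtered cells on UMIs, genes and mitochondrial reads, and removed doublets found with scrublet before deposit. The deposited values were scaled scores of variable genes, made per site over both libraries and capped at 10. A further regression on total UMIs, read from the values, is not described in the methods. The tests had been planned for counts, so scores were inverted to whole UMIs (99.9995% to 99.9998% of values within 0.05 of a whole number). Capped values, 0.144% to 0.16% of those detected, are lower bounds. The submitters' processing was not rerun. No column of per-sample values was left unused.

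Cells were clustered with scanpy 1.11.5 and leidenalg 0.10.2 without Ifng and Xcl1. T and NK subclusters were named by hand, after their values were seen, from marker lists. Recomputed doublet scores over 0.15 were found in 6.6% to 11.1% of all cells and 7.2% to 22.2% of T and NK cells per library, and these cells were kept. UMIs were summed per class and given per 1000000 total UMIs (CPM). Ratios have exact intervals conditional on the sum, shares exact binomial (Clopper-Pearson) intervals and share differences Newcombe intervals, all at 95%. UMIs of 1 library are no replicates, and the only p-values are exact sign-flip permutation tests over the 3 sites as pairs. The ratio calculation was tested on simulated data.

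Members and gene lists were chosen with earlier results of these data known. Named genes were the members, the genes of fixed lists by role that were at least 2-fold different with an interval leaving out 1 (at most 6 a list, those of most UMIs, after a minimum of 20 UMIs), and the 5 genes most like each member. Other genes, such as Xcr1, Clec9a, Iigp1 and those named only by direction, were named because a sentence turned on them. Gene positions came from GENCODE M21 and promoters from RefSeq. The alternatives tried were another choice of T and NK cells, means over cells, leaving out capped, shallow, doublet-like or highest cells, trimmed-mean scaling, finer clusters, other thinning and other minimums. Results that need an item withheld here are not reported.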

Additional observations from a re-analysis of the deposited data

Results flagged for a closer look

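Among the T and NK cells and 5 of their classes (NK-like, ILC1-like, Cxcr6 T, CD8 T-like and CD4 T-like), effects of opposite direction at different sites, each with an interval that left out 1, were seen in 5 cases. Over all sorted cells, which were not part of this comparison, Ifng was at 2.07 in AT and 0.591 in micrometastasis and Xcl1 at 2.96 and 0.276. The difference between sites was not tested, because each group was 1 library. In T and NK cells together, Ifng in Tim3-KD over Ctrl had a ratio of 1.14 in micrometastasis and 0.447 in AT. The micrometastasis value turned below 1 with the class mix of Ctrl, and both values turned when cells were called individually from at least 2 UMIs. The thinned share in micrometastasis differed by 5.0 points (-0.5 to 10.6). In Cxcr6 T cells, Ifng had a ratio of 1.64 in macrometastasis and 0.566 in AT. In regulatory or activated CD4 T-like cells, Ifng had a ratio of 3.35 in AT and 0.273 in macrometastasis, from 11 to 34 UMIs per library. In AT Tim3-KD 1 cell held 18 of the 34 UMIs, the ratio was 2.64 without the highest cell of the class in each library, and the thinned share went the other way (5.6% against 7.1%). Xcl1 in ILC1-like cells had a ratio of 1.32 in AT, against 0.625 in micrometastasis and 0.767 in macrometastasis, and the AT value was 0.940 without the highest cell of each library and 1.02 without the highest ILC1-like cell of each. Xcl1 in CD8 T-like cells had a ratio of 3.47 in macrometastasis and 0.637 in micrometastasis, and the micrometastasis value was 1.24 as a mean over cells, with a thinned share of 15.1% in Tim3-KD and 11.5% in Ctrl. The macrometastasis value was 1.95 without the highest cell of each library and 2.34 without the highest CD8 T-like cell of each. It was 1.09 without cells of a doublet score over 0.15.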

How the results depend on the processing

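Of 299 recomputed values, 235 stayed within the counting interval of the reported value (or, for counts of genes, within 1.5 times) and 52 moved beyond it. The other 12 changed sign from a value whose interval left out a ratio of 1. Further values changed sign from an interval that included 1, as Ifng in macrometastasis did, and are not among the 12. All 18 recomputed shares of cells stayed. Values here are log2 ratios, Tim3-KD over Ctrl unless a pair of sites (both Ctrl) is named, in T and NK cells unless a class is named. The cause was not tested unless given.

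Calling cells individually from at least 2 UMIs of T or NK genes turned Ifng to 0.79 in AT and -0.87 in micrometastasis and macrometastasis over micrometastasis to 0.091, and Xcl1 to 1.33 in AT and 0.39 for micrometastasis over AT. It gave Ifng 0.72 for micrometastasis over AT, and Xcl1 -1.99 in micrometastasis and -0.27 for macrometastasis over micrometastasis. This gate took 5272 cells, 2562 of them outside the T and NK clusters and 1201 of them neutrophil-like, since 22.7% of mature neutrophil-like cells had a Cd3d UMI. A gate on at least 2 different genes, added after this was seen, took 2946 cells, among them 2700 of the 2720. It gave Ifng -0.87 in AT, 0.024 in micrometastasis and 0.22 for micrometastasis over AT, and Xcl1 -0.33 in AT, -1.09 in micrometastasis and -0.11 for micrometastasis over AT.

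With the class mix of the denominator, also added after the data were seen, Ifng turned to -0.20 in micrometastasis and 0.015 for macrometastasis over micrometastasis and was -0.77 in AT and -0.061 in macrometastasis. Xcl1 was -0.47 in AT, -0.64 in micrometastasis, -0.026 for micrometastasis over AT and -0.25 for macrometastasis over micrometastasis. Relative to the trimmed mean of all genes, Ifng was -0.86 and Xcl1 -0.34 in AT, and Xcl1 -0.76 in micrometastasis. As means over cells, Ifng was 0.40 in micrometastasis and 0.24 in macrometastasis, and Xcl1 -0.62 and -0.22. Xcl1 in micrometastasis was -1.09 without cells under 3000 UMIs.

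Without cells at the cap, Ifng was 0.36 in macrometastasis and -0.38 for macrometastasis over micrometastasis, and Xcl1 -0.43 in macrometastasis. In macrometastasis the capped cells were 1 in Ctrl and 0 in Tim3-KD for Ifng, and 1 and 4 for Xcl1, so their removal was uneven. Without cells of a doublet score over 0.15, Ifng was 0.34 in micrometastasis and -0.059 in macrometastasis, and Xcl1 -0.35 in macrometastasis. Without the highest cell of each library, added later, Ifng was 0.23 in macrometastasis and -0.40 for macrometastasis over micrometastasis, and Xcl1 -0.92 in AT. In CD8 T-like cells of macrometastasis Ifng turned to 0.074 as a mean over cells, 0.74 without capped cells and 0.24 without the highest cell. Xcl1 turned to 0.31 in CD8 T-like cells of micrometastasis as a mean over cells and to -0.089 in ILC1-like cells of AT without the highest cell.

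By replicate number, no paired analysis was possible because each group was 1 library, and for the same reason no replicate could be left out. With the 3 sites as pairs the mean ratios were -0.30 for Ifng (exact permutation p = 1.0) and -0.55 for Xcl1 (exact permutation p = 0.25, the smallest that 3 pairs allow). These sites differ in tissue or day, so they are not replicates of the same contrast. The number of cells limits some classes: in AT 7 and 1 CD8 T-like cells, and 11 NK-like cells in Tim3-KD, set no firm level.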
